A study of Mus musculus with 4 samples.

Results

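The NFIC peaks assigned to genes of histone-modifying enzymes were taken from a ChIP-Seq peak list of mouse pancreas. A peak was a member when the name of its assigned gene began with Kdm, Kmt, Setd, Prdm, Prmt, Kat, Hdac or Sirt followed by a digit. By this rule, 83 of 15824 peaks belonged to the list, at 45 of the 9086 genes with a peak. The libraries were 3 ChIP libraries made with an anti-NFIC antibody from sonicated pancreas of wild-type mice and 1 library of input DNA. The mice were 8 to 12 weeks old by the deposited description, their strain is labelled Mixed, and they carried no modified allele and received no treatment that the labels name. The authors deposited only a merged list, which gives for each peak a position, a score, the class of genomic element and the gene with the nearest TSS. Values of single libraries are not part of it, which leaves replicate error and library depth unknown. The tissue was the whole organ, which is mostly acinar, and the labelled tissue cannot be checked against marker genes because the list holds no expression. Shares are given with 95% Wilson intervals and medians with 95% intervals from order statistics. Both cover counting error only, and the peaks of a gene share their locus and are not replicates.

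NFIC belongs to the nuclear factor I family, whose dimers bind a palindrome with arms TGGC and GCCA. Histone-modifying enzymes write and erase marks on histone tails. Methyltransferases of the Kmt, Setd, Prdm and Prmt families add methyl groups to lysine or arginine, and lysine demethylases of the Kdm family remove them. Acetyltransferases of the Kat family add acetyl groups, which are generally found at active chromatin, and deacetylases of the Hdac and NAD-dependent Sirt families remove them. Family names follow sequence as well as activity, and some members act mainly on other proteins or have no known enzyme activity.

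The sequences of 9 peaks of the list are shown as examples with a high score, with matches to the NFI palindrome, or with a high score and no such match. They are not the 9 highest scores, and the peak with the highest score, that of *Setd3*, is not among them. The palindrome searched was TGGCNNNNNGCCA, on both strands, with at most 1 mismatch in its 8 fixed bases, in 200 bp around the centre of a peak. Capitals mark these matches, which are called NFI full sites here. Sequences are the plus strand of GRCm38 (mm10) from RefSeq, 5′ to 3′, each the whole 173 bases of the peak.
Hdac11, intron 3 (chr6:91160513-91160685): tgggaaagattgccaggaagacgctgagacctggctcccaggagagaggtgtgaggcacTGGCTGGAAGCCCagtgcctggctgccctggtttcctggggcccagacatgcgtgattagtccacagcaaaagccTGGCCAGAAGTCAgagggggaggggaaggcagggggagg
Hdac11, intron 1 (chr6:91157130-91157302): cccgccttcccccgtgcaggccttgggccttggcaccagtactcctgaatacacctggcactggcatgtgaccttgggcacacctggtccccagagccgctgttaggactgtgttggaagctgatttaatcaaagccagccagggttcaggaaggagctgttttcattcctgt
Kdm6b, intergenic by the list (chr11:69417615-69417787): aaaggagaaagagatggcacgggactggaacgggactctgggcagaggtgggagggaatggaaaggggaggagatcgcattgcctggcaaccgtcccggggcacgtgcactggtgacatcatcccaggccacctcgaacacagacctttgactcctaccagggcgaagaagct
Kmt2e, intron 10 of Srpk2 (chr5:23518824-23518996): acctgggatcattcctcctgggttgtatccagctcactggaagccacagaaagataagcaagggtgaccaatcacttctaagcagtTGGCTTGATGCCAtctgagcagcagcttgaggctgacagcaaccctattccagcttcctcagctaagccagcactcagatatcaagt
Prdm1, intergenic by the list (chr10:44474363-44474535): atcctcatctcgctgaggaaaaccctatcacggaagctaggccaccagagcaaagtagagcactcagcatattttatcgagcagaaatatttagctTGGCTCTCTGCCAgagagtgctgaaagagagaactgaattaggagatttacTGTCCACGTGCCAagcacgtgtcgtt
Kmt5a, promoter (chr5:124439729-124439901): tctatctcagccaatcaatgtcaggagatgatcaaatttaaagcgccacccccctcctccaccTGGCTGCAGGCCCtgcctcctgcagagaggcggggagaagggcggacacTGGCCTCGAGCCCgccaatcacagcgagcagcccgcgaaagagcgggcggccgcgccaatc
Kmt2a, promoter (chr9:44881402-44881574): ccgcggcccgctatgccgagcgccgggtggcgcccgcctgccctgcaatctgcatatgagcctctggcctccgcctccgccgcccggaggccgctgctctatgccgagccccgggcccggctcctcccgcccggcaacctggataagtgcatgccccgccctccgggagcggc
Kat2b, intron 1 (chr17:53587177-53587349): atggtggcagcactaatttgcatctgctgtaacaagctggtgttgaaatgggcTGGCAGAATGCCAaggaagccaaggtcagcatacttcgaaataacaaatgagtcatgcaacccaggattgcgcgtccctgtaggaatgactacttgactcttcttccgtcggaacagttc
Kdm1a, intron 1 (chr4:136601546-136601718): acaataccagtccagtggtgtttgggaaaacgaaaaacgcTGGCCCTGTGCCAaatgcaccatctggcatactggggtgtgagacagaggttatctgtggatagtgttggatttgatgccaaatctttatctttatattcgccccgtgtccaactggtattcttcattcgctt

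The peaks of *Kmt2e*, *Prdm1*, *Kat2b* and *Kdm1a* hold a palindrome without mismatch. The sites read TGGCTTGATGCCA, TGGCTCTCTGCCA, TGGCAGAATGCCA and TGGCCCTGTGCCA in that order. A peak in intron 1 of *Hdac2* holds another, TGGCCGGTGGCCA, at chr10:36975174-36975186. Of the remaining sequences, those of the *Hdac11* intron 3 and *Kmt5a* peaks hold 2 sites with 1 mismatch each, and those of *Hdac11* intron 1, *Kdm6b* and *Kmt2a* hold none. At the promoter of *Setd3*, the peak with the highest score of the list holds the site TGGACGGCAGCCA, with 1 mismatch, at chr12:108179273-108179285.

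The first comparison asked how often genes of these families had an NFIC peak. Of the 82 protein-coding genes in the RefSeq annotation whose names match the rule, 45 had at least 1 peak (54.9%, 95% interval 44.1 to 65.2). Of all 21000 protein-coding genes, 37.2% had one. Without the olfactory, vomeronasal and taste receptor genes, the share of all genes was 40.0%. The lower end of the interval lay above both. The promoter window ran from −1000 bp to the TSS, and 12 genes of the list had a peak in it (14.6%, interval 8.57 to 23.9) against 10.7% of all genes, and this interval included the share of all genes. It also did so with a window of −1000 to 100 bp (18.3%, interval 11.4 to 28.0, against 13.6%), with one of −1000 to 1000 bp (23.2%, interval 15.4 to 33.4, against 18.1%) and with the promoter-TSS class (18.3% against 14.2%). With 3 other rules it did not. A window of −5000 bp to the TSS gave 23.2% (interval 15.4 to 33.4) against 13.3%. Any TSS of the reference annotation gave 22.0% (interval 14.4 to 32.1) against 13.0%. Promoter peaks in the upper 2 quartiles of score gave 12.2% (interval 6.76 to 21.0) against 5.57%. Scores equal to the median of all peaks counted as upper, and the promoter peaks of *Setd1a* and *Sirt3* were such ties.

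Gene length and GC content moved with the share of genes that had a peak. The genes of the list had a median length of 41.3 kb (interval 26.6 to 52.3) against 17.7 kb for all genes, and a median GC content of 60.9% within 500 bp of the TSS against 55.8%. Among genes longer than 17.7 kb, 39 of 68 genes of the list had a peak (57.4%, interval 45.5 to 68.4), and 47.1% of all such genes. Among genes up to that length, it was 6 of 14 (42.9%, interval 21.4 to 67.4) against 27.3%. Where the GC content was 60% or more, 26 of 45 genes of the list had a peak (57.8%, interval 43.3 to 71.0), and 55.5% of all such genes. In the same GC range, 8 of 45 had a promoter peak (17.8%, interval 9.29 to 31.3), and 19.0% of all such genes. Each of these intervals included the share of all genes of the same length or GC content. Below 60% GC, 19 of 37 genes of the list had a peak (51.4%, interval 35.9 to 66.6) against 28.4% of all such genes, and this interval did not include the share of all genes. In that range, 4 of 37 had a promoter peak (10.8%, interval 4.29 to 24.7) against 6.76%.

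Most genes of the list with a peak had a single one. One peak was assigned to 27 genes, 2 peaks to 9 genes, 3 peaks to 3 genes and 4 peaks to 4 genes. *Hdac11* had 6 peaks and *Kat2b* had 7. The mean was 1.84 peaks per gene with a peak against 1.75 for all genes, and 18 of 45 genes had 2 or more (40.0%, interval 27.0 to 54.5) against 38.8% of all protein-coding genes with a peak. The number of peaks and the length of the gene had a Pearson's r of −0.05 and a Spearman's rho of 0.08 across the 82 genes of the list, which are not independent replicates. Across all 21000 genes, r was 0.18 and rho was 0.27.

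**Figure D1:**
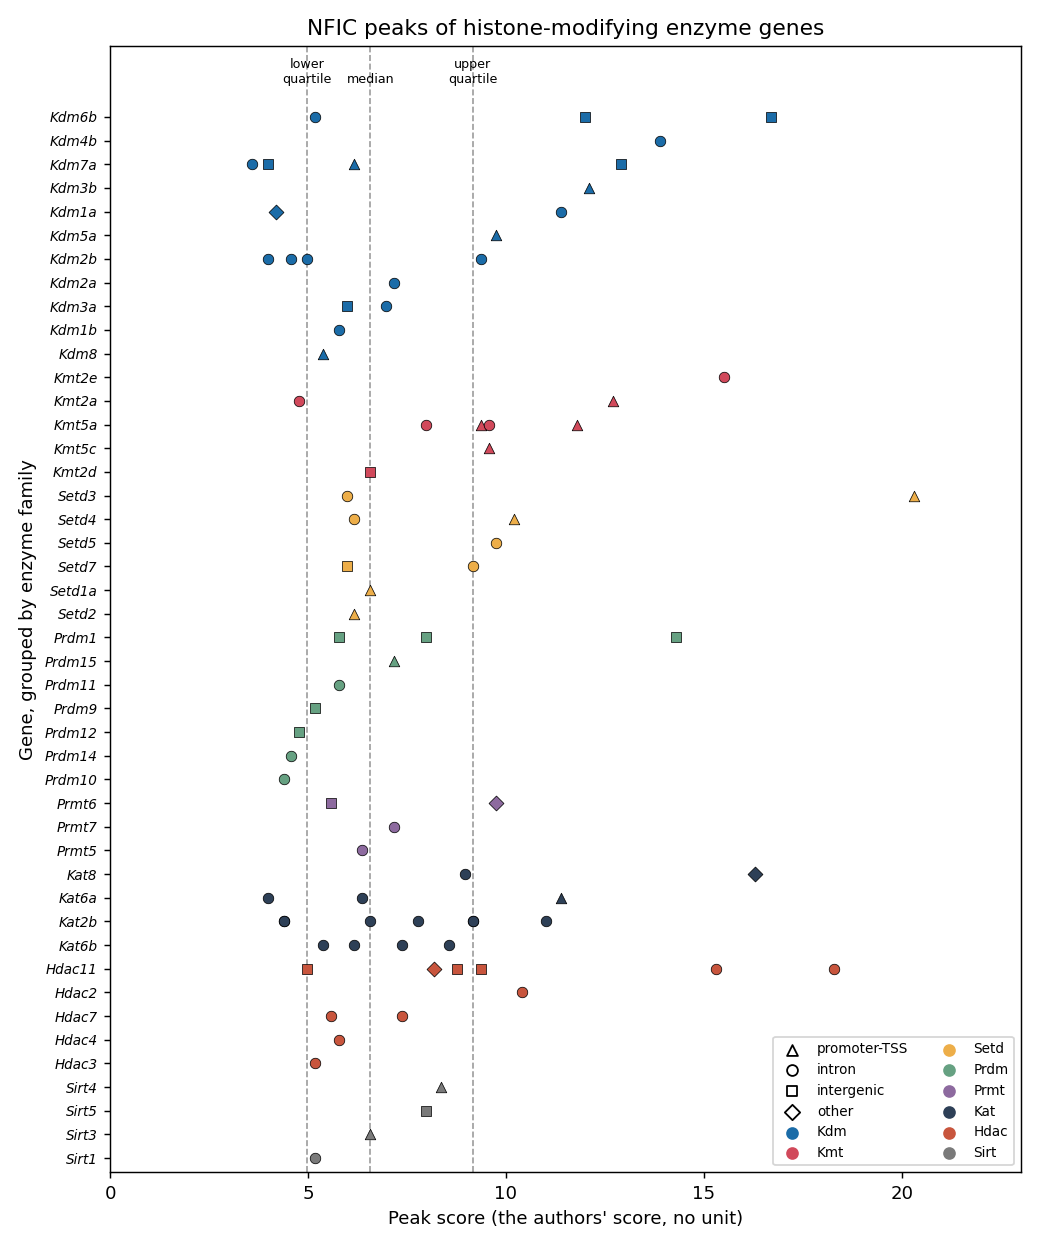
Score of each NFIC peak (horizontal axis, the authors' score, no unit) by gene, grouped and coloured by enzyme family. Marker shapes give the genomic class and the dashed lines the quartiles of all peaks, at 4.98, 6.57 and 9.16. The highest score is that of the *Setd3* promoter peak at 20.3, and *Kat2b* and *Hdac11* have the most peaks. Points of equal score in a gene overlap.

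The score served to rank peaks within the list, because its scale is not given in the sources used here. The 83 peaks had a median score of 7.17 (interval 6.17 to 8.37) and ranged from 3.59 to 20.3, against a median of 6.57 over all peaks, which lies in that interval. Scores in the upper 2 quartiles were found for 48 of 83 peaks (57.8%, interval 47.1 to 67.9) and for 51.6% of all peaks. The upper 2 quartiles include scores equal to the median of 6.57. With 1 peak per gene, the highest, the median was 8.56 for the list (interval 6.97 to 10.2) and 7.17 for all genes with a peak, which lies in that interval.

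The class of genomic element was compared next. Introns held 46 of the 83 peaks (55.4%, interval 44.7 to 65.6) against 40.8% of all peaks, and 19 of these 46 lay in intron 1 (41.3%, against 43.5% of all intron peaks). Intergenic peaks were 17 (20.5%, interval 13.2 to 30.4) against 30.6%. For both classes the interval did not include the share of all peaks. These intervals count peaks of the same gene as independent, and *Kat2b* alone gave 7 of the 46 intron peaks. The comparison was not repeated without that gene. The genes of the list were also longer, with a median of 41.3 kb against 17.7 kb, and the part of length was not tested. The classes are those of the authors' transcripts. Of the 17 intergenic peaks, 7 had their centre within the span that the RefSeq copy gives to the assigned gene (41.2%, interval 21.6 to 64.0), against 5.06% of all intergenic peaks. These 7 were 2 peaks each of *Kdm6b* and *Prdm1* and 1 each of *Kmt2d*, *Prdm12* and *Sirt5*. The promoter-TSS class held 16 peaks at 15 genes (19.3%, interval 12.2 to 29.0), close to the 20.7% of all peaks. A 3′ UTR held 3 peaks and a non-coding exon 1. No peak of the list was annotated to a coding exon, a 5′ UTR or a transcription termination site, and a count of 0 allows up to 3 counts of 83 peaks, a share of 3.61%. Over all peaks these classes held 3.20%, 1.25% and 1.83%, so the absence of each class, taken alone, was within the limit. Their joint absence was not compared with a limit.

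The peak lay in a transcript of the assigned gene in 43 cases and in a transcript of another gene in 7. The hosts of these 7 were *Adk* for *Kat6b*, *Bckdk* for *Kat8*, *Luzp1* for *Kdm1a*, *Dnah2* for *Kdm6b*, *Srpk2* for *Kmt2e*, *Ncoa2* for *Prdm14* and *5031434O11Rik* for *Setd7*. The assignment of these peaks to an enzyme gene rests on the distance to the TSS. No measurement here links a peak to the expression of a gene.

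Distances to the TSS had a median size of 5791 bp (interval 3728 to 12443) against 10438 bp over all peaks. Of the 83 peaks, 20 lay within 1000 bp of the TSS (24.1%, against 27.4% of all peaks) and 26 lay farther, up to 10000 bp away (31.3%, interval 22.4 to 41.9, against 21.7%). A further 33 lay up to 100000 bp away (39.8% against 43.3%) and 4 farther than that (4.82% against 7.60%). Upstream peaks were 38 and downstream peaks 45, a split that was not counted over all peaks.

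**Figure D2:**
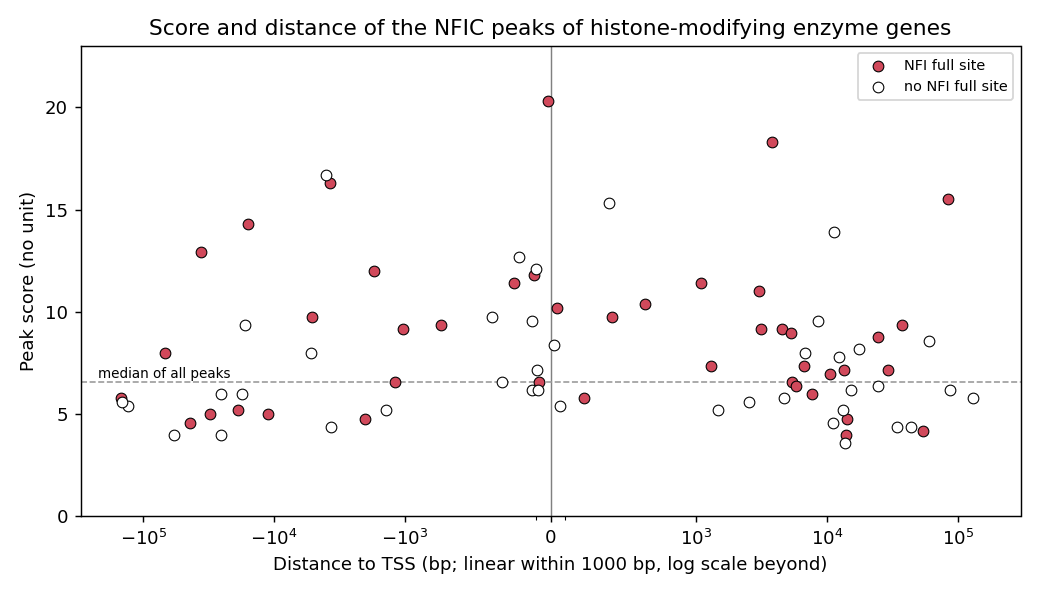
Score of the 83 peaks (vertical axis, no unit) against the distance to the TSS in bp (horizontal axis, linear within 1000 bp and logarithmic beyond, upstream negative). Filled points hold an NFI full site. Scores above 15 occur at the *Setd3* TSS, upstream of the TSSs that the list names for *Kdm6b* and *Kat8*, in introns 1 and 3 of *Hdac11* and in the *Srpk2* intron assigned to *Kmt2e*.

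The peaks of single families were described by role, beginning with the writers of methylation. In the Kmt family, lysine methyltransferases named for their activity, 5 of 8 genes had a peak (62.5%, interval 30.6 to 86.3). Of the 9 peaks, 8 were in the upper 2 quartiles of score, against 51.6% of all peaks. The 8 include the *Kmt2d* peak, which lay on the median, and 4 of the 9 belong to *Kmt5a*. *Kmt2e*, a member of the MLL family whose methyltransferase activity is in doubt, had the highest score at 15.5. That peak lay 84481 bp from the *Kmt2e* TSS, in intron 10 of the kinase gene *Srpk2*. A nearer peak, not assigned to *Kmt2e*, had its centre at −1477 bp from a TSS of the gene in the RefSeq copy. *Kmt2a*, the H3K4 methyltransferase MLL1, had a promoter peak at −214 bp with a score of 12.7 and a peak of 4.78 in intron 1. *Kmt5a*, which places the single methyl group on H4K20, had 4 peaks, with scores of 11.8 and 9.36 at −115 and −754 bp and of 7.97 and 9.56 in intron 4. The promoter peaks of *Kmt5a* lie at different TSSs. *Kmt5c*, which adds further methyl groups to H4K20, had 1 promoter peak at −130 bp with a score of 9.56. *Kmt2d*, an H3K4 methyltransferase of enhancers, had a peak of 6.57 at −1195 bp, just outside the promoter window of the TSS in the list. *Kmt2b*, *Kmt2c* and *Kmt5b* had no assigned peak, though a peak assigned to another gene lay near a *Kmt2b* TSS, as given under other observations.

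In the Setd family, which shares the catalytic SET domain, 6 of 8 genes had a peak (75.0%, interval 40.9 to 92.9). The *Setd3* promoter peak at −16 bp had a score of 20.3, higher than 98.3% of all peaks, and the other peak of the gene, in intron 1, had a score of 5.98. SETD3 is known as the histidine methyltransferase of actin. The TSS of *Ccnk* lies within 1000 bp of this promoter peak, so the peak lay near the TSSs of both genes. *Setd1a*, the catalytic subunit of a H3K4 methyltransferase complex, and *Setd2*, which trimethylates H3K36, had promoter peaks at −332 and −84 bp with lower scores of 6.57 and 6.17. *Setd4* had a peak of 10.2 at 41 bp downstream of the TSS, with an NFI site without mismatch that reads TGGCCACACGCCA, and a peak of 6.17 in intron 8. *Setd5* had a peak of 9.76 in intron 1. *Setd7*, a methyltransferase of H3K4 and of other proteins, had peaks of 9.16 at −1029 bp and 5.98 at −17479 bp. *Setd1b* and *Setd6* had no assigned peak.

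The Prdm family joins a PR domain, related to SET, to zinc fingers, and most of its members act as DNA-binding regulators. A peak was assigned to 7 of 14 genes (50.0%, interval 26.8 to 73.2), and 5 of the 9 peaks were intergenic by the list. *Prdm1*, which encodes the repressor BLIMP1 of plasma cell differentiation, had 3 peaks, all with an NFI full site and all upstream of the TSS that the list names. Their scores were 14.3 at −15701 bp, 7.97 at −68173 bp and 5.78 at −148833 bp, so the nearest to that TSS had the highest score. The list calls all 3 intergenic, but in the RefSeq copy the peaks of 14.3 and 7.97 lay within the span of the gene. The peak of 7.97 was the nearer of these to the 5′ end of that span, so the order by distance depends on the TSS. *Prdm15* had the promoter peak of the family, at −94 bp with a score of 7.17. *Prdm9*, the methyltransferase that sets sites of meiotic recombination, *Prdm10*, *Prdm11*, *Prdm12*, a regulator of pain neurons, and *Prdm14*, a regulator of germ cells, had 1 peak each with scores from 4.38 to 5.78. All 5 were below the median of all peaks. The remaining genes of the family had no assigned peak.

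Among the arginine methyltransferases of the Prmt family, 3 of 8 genes had a peak (37.5%, interval 13.7 to 69.4). None had a promoter peak, against 10.7% of all genes, and 8 genes are too few to tell this absence from that share. With limits of −1000 and 1000 bp, the *Prmt6* peak at 422 bp counts. *Prmt6*, which makes asymmetric dimethylarginine on histone H3, had a peak of 9.76 at 422 bp, in exon 1 of its transcript by the list, and a peak of 5.58 at −145456 bp in a LINE repeat. *Prmt5*, the main enzyme of symmetric dimethylarginine, had a peak of 6.37 in intron 8 with an NFI site without mismatch, TGGCAAATGGCCA. *Prmt7*, which makes monomethylarginine, had a peak of 7.17, also in intron 8. *Prmt1*, *Prmt2*, *Prmt3*, *Prmt8* and *Prmt9* had no assigned peak.

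The acetyltransferases of the Kat family had the most peaks for each gene with a peak. Only 4 of 8 genes had any (50.0%, interval 21.5 to 78.5), but these held 16 peaks, 14 of them in introns. *Kat2b*, which encodes PCAF, had 7 peaks, all in its introns and 6 of them in intron 1. Their scores were 11.0, 9.16, 9.16, 7.77, 6.57, 4.38 and 4.38. The 4 peaks with an NFI full site had scores of 11.0, 9.16, 9.16 and 6.57, and the 3 without one had 7.77, 4.38 and 4.38. *Kat6b*, or MORF, had 4 peaks with scores from 5.38 to 8.56, and *Kat6a*, or MOZ, had a promoter peak of 11.4 at −249 bp and 2 peaks of 3.98 and 6.37 in intron 3. *Kat8*, or MOF, which acetylates H4K16, had a peak of 16.3 at −3728 bp, in the 3′ UTR of the neighbouring gene *Bckdk*, and a peak of 8.96 in intron 3. *Kat2a*, *Kat5*, *Kat7* and *Kat14* had no assigned peak, though a peak assigned to another gene lay near a *Kat14* TSS, as given under other observations.

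Erasers of methylation were the largest family. Of 18 Kdm genes, 11 had a peak (61.1%, interval 38.6 to 79.7), with 21 peaks and a median score of 6.17. *Kdm6b*, the H3K27 demethylase JMJD3, had the highest score at 16.7, at −4026 bp, a peak of 12.0 at −1728 bp and a peak of 5.18 at −18854 bp in intron 73 of *Dnah2*. The peaks of 16.7 and 12.0 are intergenic in the list and lay within the span of *Kdm6b* in the RefSeq copy. *Kdm4b*, a demethylase of trimethylated H3K9, had a single peak of 13.9 in intron 1. *Kdm7a*, which removes methyl groups from H3K9 and H3K27, had 4 peaks, the one with the highest score intergenic at −36423 bp with a score of 12.9. The others had scores of 6.17 in the promoter at −128 bp, 3.98 at −58225 bp and 3.59 in intron 1. *Kdm3b*, an H3K9 demethylase, had a promoter peak of 12.1 at −98 bp, and its relative *Kdm3a* had peaks of 6.97 in intron 4 and 5.98 at −25597 bp. *Kdm5a*, which demethylates trimethylated H3K4, had a promoter peak of 9.76 at −403 bp, where the TSS of *Ccdc77* is also within 1000 bp.

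The remaining demethylase genes had scores from 3.98 to 11.4. *Kdm1a*, the flavin-dependent H3K4 demethylase LSD1, had a peak of 11.4 in intron 1 and a peak of 4.18 at 54264 bp, in the 3′ UTR of *Luzp1*, and both held an NFI site without mismatch. *Kdm2b*, which binds unmethylated CpG islands and recruits Polycomb complexes, had 4 intronic peaks with scores of 9.36, 4.98, 4.58 and 3.98, and the highest of them lay on a CpG island. *Kdm1b*, *Kdm2a* and *Kdm8* had 1 peak each, with scores of 5.78 in intron 2, 7.17 in intron 2 and 5.38 at 65 bp. *Kdm4a*, *Kdm4c*, *Kdm4d*, *Kdm5b*, *Kdm5c*, *Kdm5d* and *Kdm6a* had no assigned peak.

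Of 11 Hdac genes, 5 had a peak (45.5%, interval 21.3 to 72.0). None had a promoter peak, against 10.7% of all genes, and 11 genes are too few to tell this absence from that share. The absence also depends on the window, because peaks of *Hdac11* and *Hdac2* at 401 and 646 bp count with limits of −1000 and 1000 bp. *Hdac11*, the single class IV deacetylase, which removes long fatty acyl groups, had 6 of the 11 peaks. The highest score was 18.3 in intron 3, at chr6:91160513-91160685, higher than 97.1% of all peaks. The peak in intron 1, 401 bp from the TSS, had a score of 15.3. The other 4 had scores of 9.36 at −16636 bp, 4.98 at −11035 bp, 8.17 in the 3′ UTR and 8.76 at 24693 bp. *Hdac2*, a class I nuclear deacetylase, had a peak of 10.4 in intron 1 at 646 bp, on a CpG island and with an NFI site without mismatch. *Hdac7*, of class IIa, had 2 peaks of 7.37 and 5.58 in intron 1. *Hdac3*, the deacetylase of the NCoR and SMRT corepressors, and *Hdac4*, of class IIa, had 1 peak each in introns with scores of 5.18 and 5.78. *Hdac1*, *Hdac5*, *Hdac6*, *Hdac8*, *Hdac9* and *Hdac10* had no assigned peak.

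Of 7 sirtuin genes, 4 had a peak (57.1%, interval 25.0 to 84.2), and each had only 1. The score was 8.37 at 21 bp from the *Sirt4* TSS, 7.97 at −5253 bp from that of *Sirt5*, 6.57 at −77 bp from that of *Sirt3* and 5.18 in intron 4 of *Sirt1*. *Sirt3*, *Sirt4* and *Sirt5* encode the mitochondrial sirtuins, whose substrates are metabolic enzymes, and *Sirt1* encodes a nuclear deacetylase. The TSS of *Psmd13* also lay within 1000 bp of the *Sirt3* peak. *Sirt2*, *Sirt6* and *Sirt7* had no assigned peak, though a peak assigned to another gene lay near a *Sirt6* TSS, as given under other observations.

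**Figure D3:**
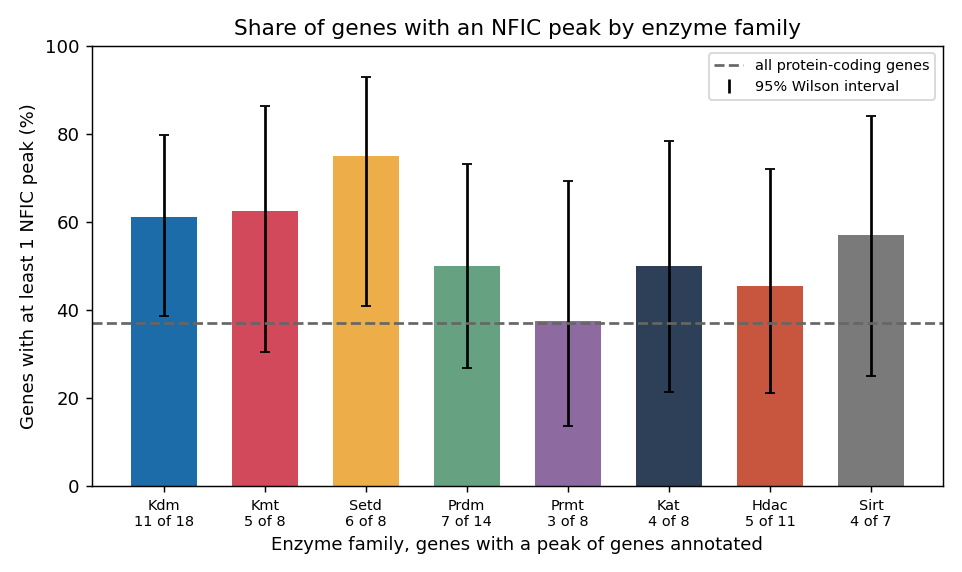
Share of the annotated genes of each enzyme family that had at least 1 NFIC peak (vertical axis, percent), with 95% Wilson intervals as bars. The dashed line is the share of all protein-coding genes, 37.2%, and the shares run from 37.5% in Prmt to 75.0% in Setd. Only the intervals of Kdm and Setd lie above the line, and the intervals of all 8 families overlap one another. The Kdm interval, from 38.6%, includes the 40.0% of all genes without the receptor genes. Both intervals include the 47.1% of all genes longer than 17.7 kb.

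Of the 37 genes without an assigned peak, 9 had the centre of a peak within 10000 bp of a TSS and 10 had none within 100000 bp of any TSS. These counts were not taken over all genes without a peak, so they describe the list only. The 4 genes of the list on chromosome X, *Hdac6*, *Hdac8*, *Kdm5c* and *Kdm6a*, had no peak, and of all 902 protein-coding genes on chromosome X, 11.4% had one.

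Peaks of the promoter-TSS class had higher scores at these genes than over the whole list of peaks. The 16 peaks had a median score of 9.46 (interval 6.57 to 11.8) against 6.37 for all promoter-TSS peaks. Of them, 13 were in the upper 2 quartiles (81.2%, interval 57.0 to 93.4), and of all promoter-TSS peaks it was 49.1%. The 3 below were *Kdm7a*, *Setd2* and *Kdm8*. Among the 13, the peaks of *Setd1a* and *Sirt3* lay on the median of all peaks, 6.57, and counted as upper. The share without these ties was not compared. The other 67 peaks had a median score of 6.57, the same as all other peaks, and 52.2% of them were in the upper 2 quartiles against 52.3%. The median GC content of the promoter-TSS peaks was 69.2% (interval 54.5 to 75.0) against 65.0% for all peaks of the class, and its part in the scores was not tested.

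NFI full sites were as frequent in the list as elsewhere. They were found in 43 of 83 peaks (51.8%, interval 41.2 to 62.2), at 29 genes, and in 51.8% of all peaks. A site without mismatch was found in 12 peaks (14.5%, interval 8.47 to 23.6) at 11 genes against 13.4%. The 11 genes were *Hdac2*, *Hdac7*, *Kat2b*, *Kat6b*, *Kdm1a*, *Kdm2b*, *Kmt2e*, *Prdm1*, *Prmt5*, *Setd4* and *Setd7*. Of the 49 sites counted, 22 lay within 25 bp of the centre of the peak, and the median offset was 28.0 bp. Offsets were not taken over the sites of all peaks, so they describe the list only. Peaks with a site had a median score of 8.76 (interval 6.57 to 9.76) and peaks without one 6.17 (interval 5.58 to 7.97). Over all peaks these medians were 7.17 and 5.98. The sites are sequence matches in a merged list, and no match says only that these letters are absent from the window.

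Promoter-TSS peaks and other peaks differed in the letters they held. Among promoter-TSS peaks of the list, 6 of 16 held an NFI full site (37.5%, interval 18.5 to 61.4) against 36.0% of all such peaks. Among the other peaks, 37 of 67 held one (55.2%, interval 43.4 to 66.5) against 55.9%. The SP box GGGCGG, the core of the sites bound by SP1 and its relatives, showed the opposite order, with 11 of 16 promoter-TSS peaks (68.8%, interval 44.4 to 85.8) against 58.5% and 4 of 67 other peaks (5.97%, interval 2.35 to 14.4) against 11.3%. It was searched on both strands and was found in 18.1% of the list and 21.1% of all peaks. The NFI arm TTGGCA, which overlaps the full site, was found in 32.5% of the list and 33.6% of all peaks. Among the 10 peaks of the list with the highest scores, 6 held an NFI full site and 2, those of *Setd3* and *Kmt2a*, were promoter-TSS peaks. Over all peaks of any score these shares were 51.8% and 20.7%, and the highest peaks of all genes were not counted.

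**Figure D4:**
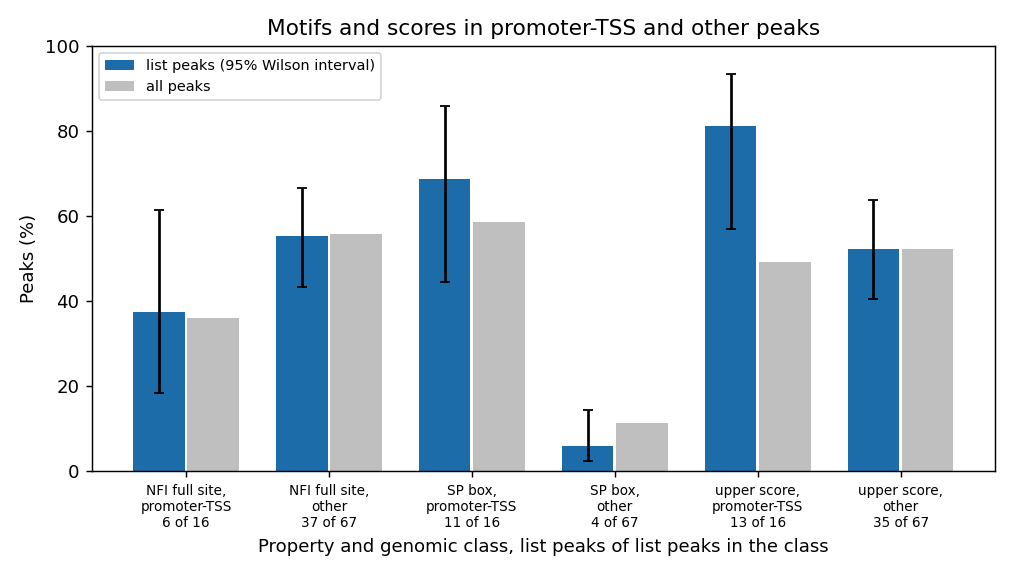
Share of peaks (vertical axis, percent) with an NFI full site, with an SP box or with a score in the upper 2 quartiles, in the promoter-TSS class and among other peaks. Blue bars are the peaks of the list with 95% Wilson intervals and grey bars all peaks. The blue bar for high scores in the promoter-TSS class, 81.2%, is the one whose interval does not include the grey bar. It counts scores equal to the median as high, among them those of *Setd1a* and *Sirt3*.

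Sequence classes were also compared. Annotated repeats held 9 of the 83 peaks (10.8%, interval 5.81 to 19.3) against 10.5% of all peaks. CpG islands outside promoters held 6 peaks (7.23%, interval 3.36 to 14.9) against 3.40%, namely those of *Hdac2*, *Kat6b*, *Kdm2b*, *Prdm11*, *Prdm12* and *Sirt5*. The focus ratio, a fraction that describes how narrow a peak is, had a median of 0.697 (interval 0.681 to 0.711) against 0.684.

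Other genes of the same pathways, chosen by function and not by these name prefixes, were counted for comparison. Of 94 genes in 6 lists, 52 had a peak (55.3%, interval 45.3 to 65.0) against 37.2% of all protein-coding genes. A promoter peak was present at 24 (25.5%, interval 17.8 to 35.2) against 10.7%. Their 92 peaks had a median score of 6.37 against 6.57 for all peaks, and 57.6% held an NFI full site against 51.8%. Among other methyltransferases, 11 of 20 genes had a peak, and the highest score was 16.7 in an intron of *Mecom*, a PR domain gene of haematopoietic stem cells. Among other acetyltransferases, 6 of 8 genes had a peak, led by *Crebbp*, which encodes CBP, at 11.4. Among other demethylases and their relatives, 4 of 9 genes had a peak, led by the promoter peak of *Jarid2*, a cofactor of Polycomb repressive complex, with a score of 17.5 at −365 bp.

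The complexes that carry these enzymes were counted in the same way, beside the same shares of all genes. Of 21 subunits of Polycomb and COMPASS complexes, 10 genes had a peak (47.6%, interval 28.3 to 67.6), 7 of them a promoter peak, led by *Mtf2* with 12.0 at −18 bp. Of 17 subunits of deacetylase complexes, 11 had a peak (64.7%, interval 41.3 to 82.7), and the intronic peak of *Chd3*, a remodeller of the NuRD complex, had a score of 32.9 at 4295 bp. That was above every score in the list of enzymes. Of 19 subunits of acetyltransferase complexes, 10 had a peak (52.6%, interval 31.7 to 72.7), led by the intergenic peak of *Msl1*, a scaffold of the complex that holds KAT8, with 13.9 at −8820 bp.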

How the data were processed

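Chromatin of wild-type mouse pancreas was sequenced in 3 NFIC ChIP libraries and 1 input DNA library. The submitters' processing notes name BWA, Picard, MACS2 and the build mm10, without versions, and the header of the peak list names annotatePeaks.pl of HOMER. In a paragraph on downloaded data, the study's methods name RUbioSeq+ and HOMER for merging and annotation. Thresholds are not given in the sources used here. Per the file header, the authors deposited a peak score, on a scale that is not named, a focus ratio, which is a fraction, and a distance to the TSS in bp. There are 0 columns with values per sample and none of comparisons, so no test was made.

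Peaks were counted as deposited. Gene lengths, TSSs and sequences came from a RefSeq copy of GRCm38.p6, and 67 of 78 peaks of the list with a matched transcript had the authors' distance within 1 bp. GC content was that of 500 bp on each side of the TSS. Motifs were searched by fixed letters, and the search and the intervals were tested on simulated data. By rule, the text named 19 genes, which are those with the most peaks or the highest score in each family, the 10 with the highest promoter peak and those with 5 or more peaks. The genes without a peak, except those of the Prdm family, which are not reported here by name, and the leading gene of each pathway list were also named by rule. The other genes were named after their values were seen. The members and lists were chosen with earlier results of these data known. Alternatives varied the score, the promoter window, the gene assignment, the distance, chromosome X, merging and the motif search. The tools were pysam 0.24.0, matplotlib 3.10.9, scipy 1.17.1, pandas 2.3.3 and numpy 2.4.6 under Python 3.11.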

Additional observations from a re-analysis of the deposited data

How the results depend on the processing

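A count or mean was called moved when it changed by more than 1.5 times, and a median or share when it left the 95% interval of its value. By these limits 6 of 25 alternatives moved a result and 19 did not, though changes within them were up to 1.5 times. Some of the 19 say nothing about stability. The list has 0 peaks on chromosome X, so leaving that chromosome out could not move a result. Merging peaks within 1000 bp left the median score at 7.17, the peaks per gene at 1.84 and the promoter-TSS share at 19.3%. No peaks of the list lay that close to each other, so merging could not move a result either. The 12 genes of the list with a promoter peak became 19 with a window of −1000 to 1000 bp, against 18.1% of all genes, and 19 with a window of −5000 bp to the TSS, against 13.3%. The median score of 7.17 became 8.56 with the highest peak per gene, against 7.17 for all genes with a peak, and 9.56 for promoter peaks. The share of peaks with an NFI full site, 51.8%, became 14.5% when no mismatch was allowed, against 13.4% of all peaks, and 64.6% among peaks in the upper 2 quartiles of score, against 59.4%. Within the limits, the 45 genes with a peak (54.9%) became 33 (40.2%, against 21.9% of all genes) for peaks in the upper 2 quartiles and 52 (63.4%, against 39.8%) for assignment to the nearest protein-coding TSS of the reference. The 12 genes with a promoter peak became 18 with any TSS of the reference, the promoter-TSS share of 19.3% became 27.1% in the upper 2 quartiles, and the 1.84 peaks per gene became 1.35 within 10000 bp of the TSS. Leaving out a library was not possible, because values of single libraries are not in the merged list used here. No paired analysis was possible because the list holds no values per replicate. The depth of the libraries is unknown, so a gene without a peak cannot be called unbound.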

Other observations

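The assignment of each peak to a single gene left out some enzyme promoters. With the TSSs of the RefSeq copy, 18 genes of the list had the centre of a peak from −1000 bp to a TSS, which is 22.0% (95% interval 14.4 to 32.1) against 13.0% of all protein-coding genes by the same rule. Of the 18, 6 were not counted above. For *Kat14*, a subunit of the ATAC acetyltransferase complex, a peak of score 8.96 lay at −198 bp and was assigned to the neighbour *Pet117*. For *Kmt2b*, an H3K4 methyltransferase, a peak of score 5.98 at −447 bp was assigned to *Mir3569*. For *Sirt6*, a nuclear sirtuin, the peak, with an NFI full site and a score of 4.18, lay at −539 bp and was assigned to *Ankrd24*. For *Prdm9*, *Sirt4* and *Sirt5* the peak was already in the list, at −1395, 21 and −5253 bp, but lay at −364, −166 and −72 bp from a TSS of the copy. All peaks of the list were used in the comparisons above, and these values were obtained after that list had been examined.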
